A study of Mus musculus with 23 samples.

Results

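Adm, Vegfa, Vegfc, Angpt1, Angptl4, Ptn and Mdk are 7 genes for secreted factors that act on blood vessels, out of 18193 genes named by the arrays. They were taken by symbol from the deposited table, with their signals in the groups of lines already known, so these signals cannot serve as a test of the choice. The main value of a gene is that of its brightest probe set on average, out of 15 probe sets for the 7 genes. Levels are the deposited log2 signal, in which 1 unit is a doubling. Levels of different genes come from different probe sets and are not compared with each other.

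The samples are 23 clonal preadipocyte lines, 1 array each. Every line descends from a single cell, sorted after 2 passages from the stromovascular fraction (the non-fat cells) of white fat. The donor was 1 male Immortomouse, 8 weeks old, from a strain made to yield dividing cultures through a heat-labile viral antigen. All lines share that antigen, growth at 33 °C and interferon-gamma at 10 units/mL, and 190 cells were sorted in all. The submitters formed the groups by clustering the expression data: Type 1 (3 lines, all from perigonadal fat, PGF), Other (7 lines without a numbered type, 3 PGF and 4 from subcutaneous fat, SCF), Type 2 (5 lines, 1 PGF and 4 SCF) and Type 3 (8 lines, 4 PGF and 4 SCF). The depot was read from the prefix of the clone name, taken as the fat named in the study's design. The clone names also carry a number, 1, 2 or 3, whose meaning the labels do not give, and 1 occurs only in SCF lines and 2 only in PGF lines. Differences between the types therefore describe groups made from the same values, and no p value of a single gene is printed for them. Genes said to pass, or to be higher or lower, between types were still sorted by a p threshold, as were counts of such genes. For the types that sorting is a description and not a test. Each clone is a replicate from the same animal, so a p value here measures spread between clones of 1 mouse and not between mice. The sources used here do not give the differentiation state of the cells when RNA was taken.

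Fat cells and their precursors grow with the vessels that supply them and secrete many of the signals involved. Adrenomedullin (Adm) is a peptide that widens vessels through the receptor Calcrl paired with Ramp2 or Ramp3. Vegfa is the main growth factor for blood vessels, acting through Kdr, and Vegfc the main one for lymphatic vessels, acting through Flt4. Angiopoietin 1 (Angpt1) steadies vessels through the receptor Tek. Angiopoietin-like 4 (Angptl4) inhibits lipoprotein lipase and is a target of PPAR receptors and of hypoxia. Pleiotrophin (Ptn) and midkine (Mdk) form a family of their own, heparin-binding growth factors that use syndecans, Lrp1 and the phosphatase Ptprz1.

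Both genes with the widest gap between Type 1 and Types 2 and 3, Adm and Ptn, are shown by their promoters (RefSeq, GRCm38.p6, from 250 bases before to 50 after the gene start, 5′ to 3′ on the gene's strand), since they were low in the same lines. Adm lies at chr7:110627657-110629820 and its promoter at chr7:110627407-110627706 on the plus strand. Ptn lies at chr6:36714924-36810179 and its promoter at chr6:36810130-36810429 on the minus strand. Capitals mark matches to the core of the hypoxia response element.
Adm: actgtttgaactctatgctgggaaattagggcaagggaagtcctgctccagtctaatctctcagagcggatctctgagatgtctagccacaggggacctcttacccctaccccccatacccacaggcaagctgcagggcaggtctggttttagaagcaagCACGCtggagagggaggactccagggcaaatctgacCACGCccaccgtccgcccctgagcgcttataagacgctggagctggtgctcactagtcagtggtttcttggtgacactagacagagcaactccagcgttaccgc
Ptn: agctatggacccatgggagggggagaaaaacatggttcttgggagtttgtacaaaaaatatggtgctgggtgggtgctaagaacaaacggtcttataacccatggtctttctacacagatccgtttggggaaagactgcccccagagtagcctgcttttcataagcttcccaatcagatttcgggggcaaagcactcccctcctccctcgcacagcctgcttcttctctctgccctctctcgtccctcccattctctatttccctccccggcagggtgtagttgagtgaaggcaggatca
The core was searched as ACGTG or GCGTG on both strands. The Adm window holds 2 matches, both on the opposite strand, and the Ptn window holds none. Of 32851 mouse promoter windows of this length, 43.8% hold a match, so its presence is common. Windows were also at hand for Vegfc, with no match, and for Vegfa, where 1 of 2 windows (chr17:46025114-46025413) holds GCGTG at bases 33 to 37 and CACGT, the opposite-strand form of ACGTG, at bases 40 to 44. TATAAA (13.6% of windows), the AP-1 site TGANTCA (7.81%), the TEAD site GGAATG (14.7%) and the palindromic EBF site (0.904%) matched in none of these windows on either strand, and no motif searched contains another. The other genes lie at chr8:54077532-54186454 (Vegfc), chr17:46016993-46032377 (Vegfa), chr15:42424667-42676977 (Angpt1), chr17:33774900-33781575 (Angptl4) and chr2:91929805-91932297 (Mdk).

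Array medians lay between 5.09 and 5.16, against 5.13 for the whole table. All 7 genes passed the filter for testing, 3 lines or more above the median of the table, which left 12307 genes. Mesothelial markers set Type 1 apart: their list mean lay between 8.62 and 10.59 in the Type 1 lines, against 4.08 to 5.32 in Other, 4.29 to 4.53 in Type 2 and 4.01 to 4.39 in Type 3, and 8 of the 9 tested were higher and 0 lower. Fat cell markers moved the other way, 3.98 to 4.26 in Type 1 against 4.49 to 5.44 in Other, 5.21 to 5.44 in Type 2 and 5.06 to 5.99 in Type 3, and 2 of the 3 tested were lower. The lower fat cell genes were Pparg (-3.67 ± 0.43) and Cebpa (-3.23 ± 0.50), while Retn (-0.36) did not pass. Cidec and Lep, also fat cell markers, exceeded the table median in no line, and Adipoq did so in only 1. The endothelial list mean overlapped between the groups, at 4.47 to 4.69 in Type 1 lines and 4.31 to 4.91 in all others, and 6 of its 12 genes were above the table median in no line. The fibroblast and preadipocyte list did not set Type 1 apart, since its mean there, 8.49 to 8.76, overlapped every other group. Other lines spanned 8.01 to 10.04, Type 2 lines 7.77 to 9.17 and Type 3 lines 8.72 to 10.21. Among its 10 tested genes, Cd34 (3.30) and Dpp4 (0.35) were higher, Ebf1 (-5.03) and Zfp423 (-3.27) were lower, and the rest did not pass. Macrophage and leukocyte markers lay between 4.79 and 4.86 in Type 1. They lay between 5.10 and 5.53 in Other, 5.15 and 5.41 in Type 2 and 4.57 and 5.42 in Type 3. Of the 4 tested, Csf1r (-2.6) and Lyz2 (-0.46) were lower, and Cd68 (0.97) and Cd14 (-0.55) did not pass. Lyz2 was above the table median in 4 lines, and Ptprc, Adgre1, Itgam and Tyrobp, of the same list, in 0 lines. Pericyte markers lay between 5.31 and 5.34 in Type 1, against 5.70 to 6.13 in Other, 5.77 to 5.96 in Type 2 and 5.85 to 6.13 in Type 3, without overlap, and 2 of the 5 tested were lower, Pdgfrb (-2.46 ± 0.24) and Notch3 (-1.89 ± 0.34). Cspg4 (-0.15), Abcc9 (0) and Des (0.17) did not pass. Rgs5 and Higd1b, of the same list, were above the table median in 0 lines. Pericytes are known to make Angpt1. The part of these other cell types' genes in the results on the 7 genes was not tested. An array measures a whole culture, so fewer cells with a transcript and less of it per cell cannot be told apart.

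**Figure D1:**
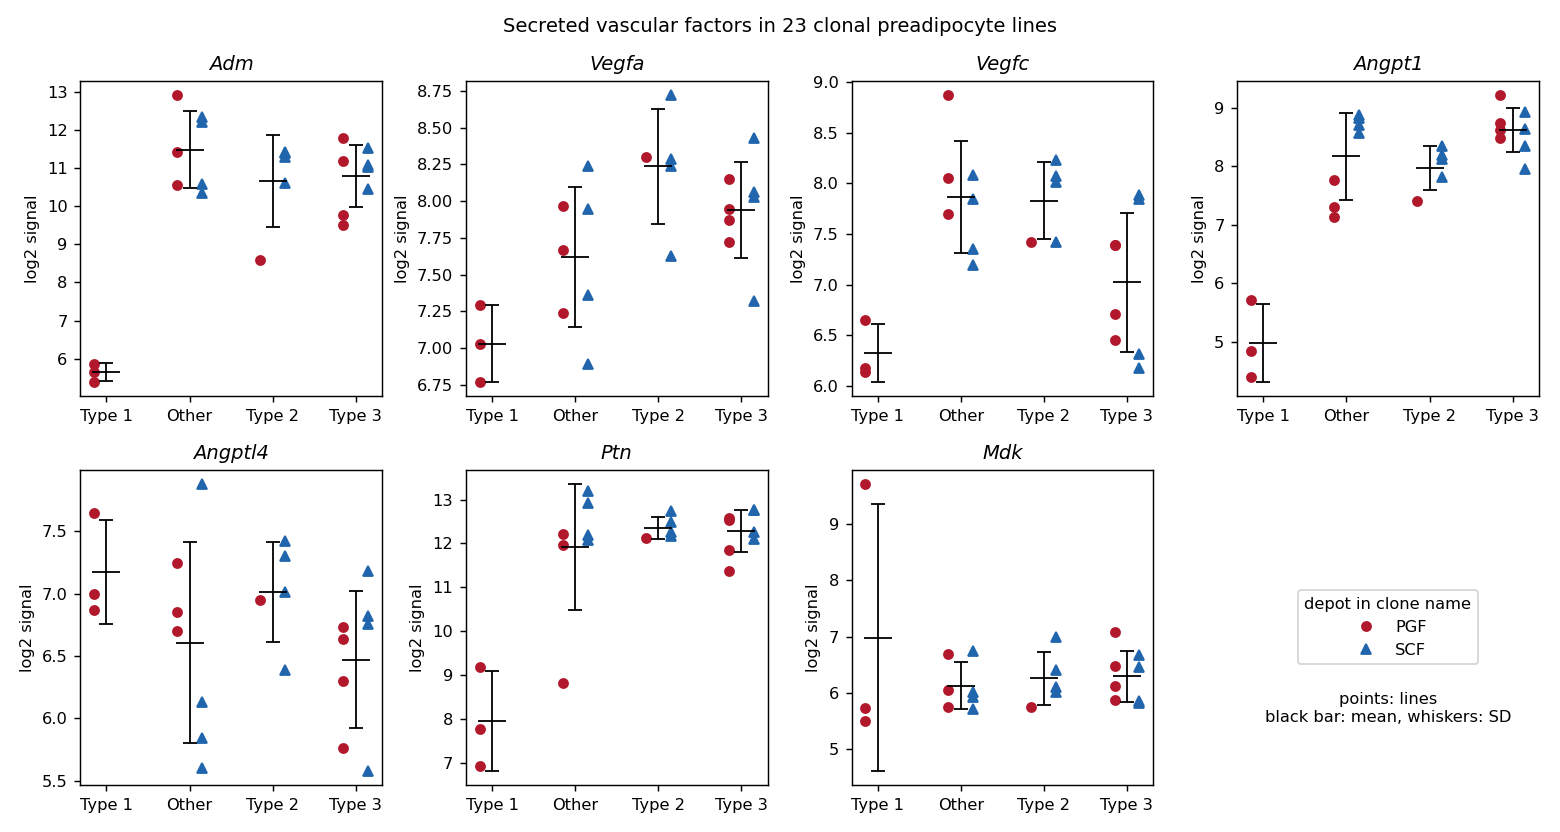
Log2 signal of the 7 genes in 23 lines, 1 panel per gene with its own vertical axis, lines grouped by type and split by depot (red circles PGF, blue triangles SCF), with the group mean as a bar and whiskers of 1 SD. In Adm and Angpt1 the 3 Type 1 lines sit below all 20 other lines, and in Mdk 1 Type 1 line at 9.71 sits apart from the rest.

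In Type 1 lines 5 of the 7 transcripts were lower than in Types 2 and 3. Adm had the widest difference, -5.09 on the log2 scale, followed by Ptn (-4.36), Angpt1 (-3.31), Vegfc (-1.10) and Vegfa (-1.06), while Angptl4 and Mdk did not pass. These 5 passed at an adjusted p of 0.05 in limma, where 14.6% of the 12307 genes passed as lower and 32.8% in either direction. The choice of genes and the making of the groups both used this contrast, so nothing is read from that count.

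Adm, the vasodilator peptide, had a log2 signal of 5.66, 5.39 and 5.86 in the 3 Type 1 lines. In the 7 Other lines it ran from 10.36 to 12.91 with a median of 11.42. The 5 Type 2 lines had 10.60, 11.42, 11.39, 11.28 and 8.59. Type 1 lay below every other line, and within Type 2 the single PGF line was the low one. Across the 8 Type 3 lines the level ran from 9.51 to 11.80 with a median of 11.06. Type 1 minus the mean of Types 2 and 3 was -5.09 ± 0.57 (SE), or 34.1-fold on this scale. The Type 1 levels lay close to the table median of 5.13 and no detection calls were used, so this ratio is uncertain. The order of group means was Other (11.48 ± 1.02, SD, n = 7), Type 3 (10.79 ± 0.82, n = 8), Type 2 (10.66 ± 1.20, n = 5) and Type 1 (5.64 ± 0.24, n = 3), and only the last step was wider than the spread. A second probe set, below the table median in all 3 Type 1 lines (4.29, 4.87 and 4.94), gave -5.77. Over the 20 lines outside Type 1 it followed the first with r = 0.99, a description of 2 readings of the same RNA.

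Vegfa, the blood vessel growth factor, had 6.77, 7.29 and 7.03 in Type 1. Its level was between 6.89 and 8.24 in Other (median 7.67) and between 7.32 and 8.43 in Type 3 (median 7.99). Type 2 lines had 8.29, 8.24, 7.63, 8.72 and 8.30. Every Type 1 line was below every Type 2 and Type 3 line, but 2 Other lines overlapped the Type 1 range. The difference was -1.06 ± 0.24, or 2.08-fold. Group means ran from Type 2 (8.24 ± 0.39) through Type 3 (7.94 ± 0.33) and Other (7.62 ± 0.48) to Type 1 (7.03 ± 0.26), with each neighbouring pair outside Type 1 closer than 1 SD. The second probe set gave -0.82, and in it the groups overlapped, with Type 1 line 2 at 6.49 and Type 3 line 4 at 6.07.

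Vegfc, the lymphatic growth factor, had 6.18, 6.65 and 6.14 in Type 1. Other lines held 7.19 to 8.87 (median 7.85), Type 2 lines 8.07, 8.23, 8.01, 7.42 and 7.42, and Type 3 lines 6.18 to 7.89 (median 7.05). Type 1 was below every Other and Type 2 line but overlapped Type 3, in which 3 lines had 6.18, 6.32 and 6.45. Type 1 minus Types 2 and 3 was -1.10 ± 0.34, or 2.15-fold. Without Type 1 line 1 or without Type 1 line 3 it was -1.03 and -1.01 and no longer passed. The other probe sets gave -1.21 and -0.86. Within Type 3 the lines spread over more than 1 unit, with 4 lines above 7.3 and 4 at or below 6.71.

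Angpt1, the ligand of Tek, had 5.71, 4.85 and 4.40 in Type 1. Its level was 7.14 to 8.88 in Other (median 8.57) and 7.95 to 9.21 in Type 3 (median 8.63), with 8.34, 7.81, 8.12, 8.19 and 7.40 in Type 2. The lowest line outside Type 1, at 7.14, was above the highest Type 1 line. The difference was -3.31 ± 0.34. Since 2 of the 3 Type 1 lines were below the table median of 5.13, and no detection calls were used, no fold is given. Group means ran in the order Type 3 (8.61 ± 0.38), Other (8.17 ± 0.75), Type 2 (7.97 ± 0.37) and Type 1 (4.99 ± 0.67), the first pair of steps being smaller than the spread. A second probe set, above the table median in 18 lines, gave a smaller difference of -1.04.

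Ptn, the heparin-binding growth factor, had 6.93, 7.77 and 9.18 in Type 1. Of the 7 Other lines 6 were between 11.97 and 13.20, and the seventh, a PGF line, was at 8.82, inside the Type 1 range. Type 2 lines had 12.73, 12.17, 12.26, 12.49 and 12.12. Type 3 ran from 11.37 to 12.77 with a median of 12.41. Type 1 minus Types 2 and 3 was -4.36 ± 0.57, a 20.5-fold difference. Means were 12.35 ± 0.25 in Type 2, 12.28 ± 0.49 in Type 3, 11.91 ± 1.44 in Other and 7.96 ± 1.14 in Type 1. Of the other probe sets 1 gave -5.21 and another -0.92.

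Mdk, the relative of Ptn, did not share its pattern. Type 1 lines had 9.71, 5.51 and 5.74, while Other lines ran from 5.71 to 6.74 (median 6.02). Type 2 lines had 7.00, 6.41, 6.11, 6.02 and 5.76, and Type 3 lines ran from 5.83 to 7.08 (median 6.30). Type 1 line 1 alone was above every other line, and the other Type 1 lines were below the rest or at their lower end. The difference of 0.71 ± 0.53 therefore rested on that line and was -0.65 without it. In the same array the actin control's 3′ probe set exceeded its 5′ probe set by 1.58, against 0.53 to 1.00 in the other 22 arrays, and for Gapdh the excess was 0.26, against -0.10 to 0.11. A wider gap between the ends is a known sign of RNA breakdown, and its part in the Mdk value was not tested. The same array is 1 of the 3 behind every Type 1 difference given here. Without it the difference from Types 2 and 3 was -3.84 for Ptn, -0.93 for Vegfa and -3.67 for Angpt1. The part of RNA breakdown in these values was not tested either.

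Angptl4, the lipase inhibitor, had 7.00, 7.65 and 6.87 in Type 1. It ran from 5.60 to 7.88 in Other (median 6.70), was 7.42, 7.01, 7.30, 6.39 and 6.95 in Type 2 and ran from 5.58 to 7.18 in Type 3 (median 6.69). All groups overlapped, and the difference was 0.43 ± 0.37. Its second probe set, at 2.30 to 2.78, was above the table median in 0 lines.

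**Figure D2:**
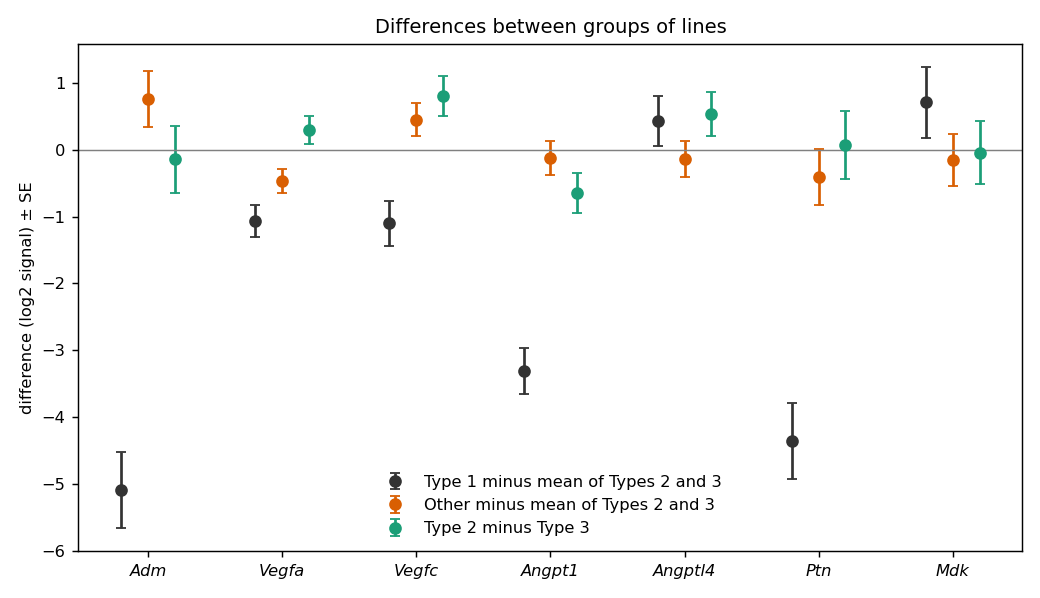
Differences in log2 signal with SE for each of the 7 genes: Type 1 minus the mean of Types 2 and 3 (black), Other minus that mean (orange) and Type 2 minus Type 3 (green). The Type 1 values reach -5.09 for Adm, whereas every value of the other comparisons lies between -0.64 and 0.81.

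Since Type 1 lines were all PGF, they were also set against only the PGF lines of Types 2 and 3. Adm differed by -4.54 ± 0.56, Ptn by -4.13 ± 0.59, Angpt1 by -3.51 ± 0.25 and Vegfa by -0.96 ± 0.29. Vegfc, at -0.75 ± 0.39, no longer passed, nor did Angptl4 (0.70 ± 0.43) or Mdk (0.72 ± 0.64). So 4 of the 7 passed as lower, beside 13.8% of all genes as lower and 29.6% in either direction. Nothing is read from this count either. By main probe sets, every Type 1 line lay below every Type 2 and Type 3 line in Adm, Vegfa, Angpt1 and Ptn. The same held for 9.21% of all genes, but not for the second probe set of Vegfa. In Adm and Angpt1 the Type 1 lines lay below all 20 other lines, as in 5.89% of genes.

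Between the remaining groups none of the 7 genes passed. In Type 2 minus Type 3, Vegfc was at 0.81 ± 0.30, Angpt1 at -0.64 ± 0.30, Angptl4 at 0.54 ± 0.33 and Vegfa at 0.30 ± 0.21, and Adm, Ptn and Mdk lay within 0.14 of 0. Of all genes 0.382% passed there. Against the mean of Types 2 and 3, the Other lines had 0.76 ± 0.42 for Adm, -0.47 ± 0.18 for Vegfa, 0.45 ± 0.25 for Vegfc and -0.41 ± 0.42 for Ptn. Angpt1 (-0.12), Angptl4 (-0.14) and Mdk (-0.15) were closer to 0. No gene of the 12307 passed in limma in that comparison (0% called), and 1135 had an unadjusted p under 0.05.

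The 7 genes varied more between clones of a group than most genes did. The SD within groups was 0.94 for Adm, 0.94 for Ptn, 0.87 for Mdk, 0.61 for Angptl4, 0.56 for Vegfc, 0.55 for Angpt1 and 0.39 for Vegfa, where the median gene had 0.21. Adm's spread was wider than that of 97.3% of genes tested and Vegfa's wider than that of 82.4%. Much of the Ptn and Mdk figures came from 1 line each, Other line 7 and Type 1 line 1. Differences between groups held 83.9% of the variance of Angpt1, 82.3% of Adm, 73.5% of Ptn, 54.3% of Vegfc and 52.2% of Vegfa, but 18.7% of Angptl4 and 9.90% of Mdk. The median gene had 28.3%.

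The receptors moved in both directions. Of 25 receptors and co-receptors of the 7 factors, 20 were tested, and in Type 1 against Types 2 and 3, 5 were higher and 6 lower, with a median difference of 0.06 beside 0.01 for all genes. In this contrast 14.6% of all genes passed as lower and 32.8% in either direction, which is the background for each list count given for Type 1. This list and those that follow were chosen with results of these data known. Flt4, the Vegfc receptor, averaged 9.06 ± 0.67 in Type 1, against 5.53 ± 0.20 in Other, 5.73 ± 0.49 in Type 2 and 5.30 ± 0.15 in Type 3, the difference being 3.55 ± 0.21. The lowest Type 1 line had 8.29 and the highest line outside Type 1 had 6.56. The 3 Type 3 lines in which Vegfc was as low as in Type 1 were not high in Flt4, which stayed between 5.00 and 5.49 in Type 3. Kdr, the Vegfa receptor, averaged 8.29 ± 0.68 in Type 1, against 6.51 ± 1.04 in Other, 6.26 ± 0.46 in Type 2 and 6.10 ± 0.40 in Type 3 (2.11 ± 0.43), though Other lines reached 8.53. Kdr is also an endothelial marker, in lines where the endothelial list as a whole overlapped between groups. Flt4 is 1 of 4 lymphatic endothelial markers, whose list mean was 6.65 to 6.83 in Type 1, against 5.78 to 6.08 in Other, 5.69 to 5.93 in Type 2 and 5.71 to 5.96 in Type 3. Prox1 and Lyve1, defining markers of that list, and Pecam1 and Cdh5 of the endothelial list, were above the table median in 0 lines.

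Calcrl and Ackr3, which bind Adm, and Tek, which binds Angpt1, were lower in Type 1. Ackr3, which in mouse removes adrenomedullin from the surroundings, averaged 5.38 ± 0.59 in Type 1, against 10.65 ± 1.18 in Other, 8.48 ± 2.30 in Type 2 and 10.59 ± 0.56 in Type 3 (-4.15 ± 0.79). Its Type 2 lines reached down to 4.59, below the Type 1 lines. Calcrl averaged 4.76 ± 0.18 in Type 1, against 5.67 ± 0.58 in Other, 6.41 ± 0.41 in Type 2 and 6.26 ± 0.26 in Type 3 (-1.57 ± 0.25). Its partners Ramp2 (-0.98 ± 0.47) and Ramp3 (-0.90) did not pass. Tek averaged 4.14 ± 0.15 in Type 1, against 7.49 ± 1.68 in Other, 5.06 ± 0.72 in Type 2 and 7.05 ± 1.10 in Type 3 (-1.92 ± 0.73), so that Type 2 came close to Type 1 for this receptor. Against the PGF lines of Types 2 and 3 Tek no longer passed (-1.99 ± 0.75), while Calcrl (-1.51 ± 0.29) and Ackr3 (-4.80 ± 0.93) did. Among the receptors of Ptn and Mdk, Sdc1 (-1.54), Sdc3 (-1.46) and Lrp1 (-1.30) were lower and Sdc4 (0.52) higher, and Ptprz1 and Alk were above the table median in 0 lines.

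**Figure D3:**
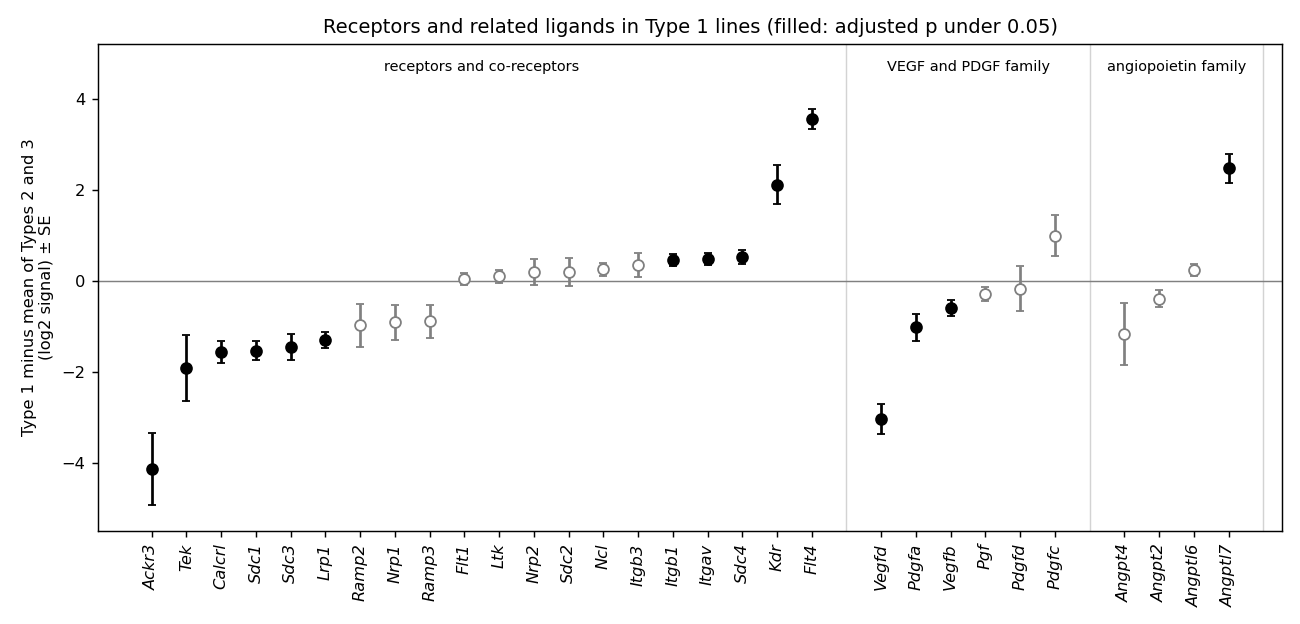
Type 1 minus the mean of Types 2 and 3 in log2 signal, with SE, for receptors and co-receptors of the 7 factors, the other VEGF and PDGF ligands and the other angiopoietin-family genes, filled where the adjusted p was under 0.05. Flt4 (3.55) and Kdr (2.11) stand highest and Ackr3 (-4.15) lowest among the receptors.

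Of 6 tested VEGF and PDGF ligands, 3 were lower and 0 higher in Type 1, beside 14.6% lower among all genes, with a median of -0.45. Vegfd, the other ligand of Flt4, averaged 8.66 ± 0.11 in Type 1, against 11.78 ± 0.91 in Other, 11.18 ± 0.32 in Type 2 and 12.22 ± 0.17 in Type 3 (-3.04 ± 0.33), and Pdgfa (-1.03 ± 0.30) and Vegfb (-0.60 ± 0.17) were the others. Of 4 tested angiopoietin-family genes only Angptl7 passed, beside 32.8% of all genes, averaging 8.24 ± 1.53 in Type 1, against 5.86 ± 0.15 in Other, 5.63 ± 0.22 in Type 2 and 5.91 ± 0.24 in Type 3 (2.47 ± 0.32).

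Of 15 tested vasoactive genes 3 were higher and 2 lower, a share near the 32.8% of all genes, with a median of -0.11. Edn1, the precursor of the vasoconstrictor endothelin 1, averaged 7.25 ± 0.16 in Type 1, against 5.10 ± 0.29 in Other, 5.06 ± 0.14 in Type 2 and 4.92 ± 0.15 in Type 3 (2.25 ± 0.13), with no overlap between Type 1 and any other line. Ptgis, the prostacyclin synthase, averaged 12.22 ± 0.18 in Type 1, against 9.60 ± 0.65 in Other, 10.34 ± 0.52 in Type 2 and 9.43 ± 1.09 in Type 3 (2.33 ± 0.48). Ptges, a prostaglandin E synthase, averaged 4.72 ± 0.41 in Type 1, against 8.37 ± 0.81 in Other, 8.19 ± 0.24 in Type 2 and 8.64 ± 0.39 in Type 3 (-3.69 ± 0.33). Gch1, which makes the cofactor of nitric oxide synthases, was higher by 3.01 ± 0.66, though 1 Other line, at 9.55, equalled the highest Type 1 line.

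Of 13 other angiogenic growth factors, 3 were higher and 2 lower, also near the 32.8% of all genes, with a median of 0.21. Hgf, the hepatocyte growth factor, averaged 5.03 ± 0.48 in Type 1, against 7.78 ± 0.60 in Other, 7.62 ± 0.34 in Type 2 and 8.44 ± 0.72 in Type 3 (-3.0 ± 0.36). Efna1 (2.50 ± 0.29) and Efnb2 (1.81 ± 0.27), membrane-bound ephrins, and Sema3e (2.08 ± 0.57), a guidance ligand, were higher. In Type 2 minus Type 3, Other minus Types 2 and 3, the overall depot comparison and both score slopes, 0 genes of these lists passed.

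Depot was compared next, since both depots gave lines to Other, Type 2 and Type 3. With group in the model, PGF minus SCF was -0.50 ± 0.23 for Angpt1 (95% interval -0.97 to -0.03, adjusted p = 0.569), -0.83 ± 0.39 for Ptn (-1.63 to -0.02, adjusted p = 0.576) and -0.57 ± 0.41 for Adm (adjusted p = 0.713), all in limma. Vegfa, Vegfc, Angptl4 and Mdk were within 0.10 of 0. None of the 12307 genes passed (0% called), while 1034 had an unadjusted p under 0.05, 2 of the 7 genes among them.

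Within the Other lines Angpt1 was the 1 gene of the 7 that passed between depots. The 3 PGF lines had 7.31, 7.76 and 7.14, and the 4 SCF lines had 8.70, 8.82, 8.57 and 8.88. Every PGF line was below every SCF line, as was the case for 6.26% of all genes. The means were 7.40 ± 0.32 and 8.74 ± 0.14 (SD, n = 3 PGF and n = 4 SCF), a difference of -1.34 ± 0.26 (95% interval -1.89 to -0.78, limma adjusted p = 0.0453), in a comparison where 0.179% of genes passed. An exact two-sided permutation test of these 7 lines gave p = 0.0286, the smallest that their 35 arrangements allow; 14 such tests were run, 7 genes in each of 2 groups, and this one did not pass after adjustment over them (0.4). The second probe set had 4.92 ± 0.19 in PGF and 5.78 ± 0.25 in SCF lines, again without overlap. Of 28 alternative settings 10 kept the call and 18 lost it, with the difference between -1.52 and -1.10 and the adjusted p between 0.0192 and 0.14.

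Cebpa, a regulator of fat cell formation (-2.12 ± 0.40, adjusted p = 0.0318), and the pericyte marker Notch3 (-1.32 ± 0.23, adjusted p = 0.0311) were lower in the same PGF lines in limma, and their part in the Angpt1 value was not tested. Ptn, at -1.60 ± 0.62 (adjusted p = 0.254, limma), owed much of its value to the PGF line at 8.82 and was -0.51 without it. The other 5 genes lay between 0.01 and 0.59 and did not pass.

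Within Type 3, where 4 PGF lines faced 4 SCF lines, Angpt1 had 9.21, 8.73, 8.49 and 8.62 in PGF and 8.92, 8.64, 7.95 and 8.35 in SCF. The depots overlapped, with a difference of 0.30 ± 0.24 (95% interval -0.21 to 0.81, limma adjusted p = 0.999). Adm (-0.46 ± 0.54) and Ptn (-0.38 ± 0.57, interval -1.59 to 0.82) did not pass either, and exact permutation tests of the 7 genes gave p between 0.343 and 0.914, where 0.0286 is the smallest possible. No gene passed in limma (0% called), and 448 had an unadjusted p under 0.05. The depot difference of Angpt1 in Type 3 minus that in Other was 1.64 ± 0.36 (95% interval 0.88 to 2.39), with an unadjusted p of 0.00023 in limma that did not pass over all genes (adjusted p = 0.181). In Type 2, 1 PGF line faced 4 SCF lines, and in Type 1 there was no SCF line.

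**Figure D4:**
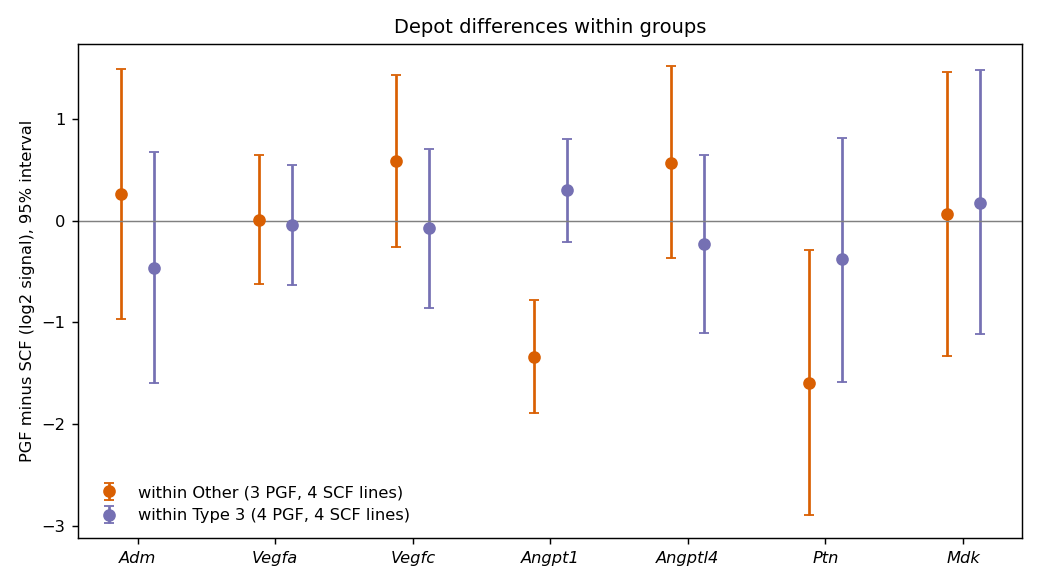
PGF minus SCF in log2 signal with 95% intervals for the 7 genes, within Other (orange, 3 PGF and 4 SCF lines) and within Type 3 (purple, 4 and 4). For Angpt1 the Other value is -1.34 and the Type 3 value 0.30, and for Adm, Vegfa, Vegfc, Angptl4 and Mdk both intervals contain 0.

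Each line also carries a score from 1 to 4 for differentiation, set by lipid staining, and for acidification of the medium, whose direction the sources used here do not state. No gene had a slope on differentiation that passed (0% of 12307, 872 with an unadjusted p under 0.05, limma with group in the model). The steepest of the 7 was Angptl4, at 0.25 ± 0.16 per point (adjusted p = 0.817). On acidification no gene passed either (0%, 1516 unadjusted). Adm had the steepest slope, 0.45 ± 0.13 per point (95% interval 0.17 to 0.73, adjusted p = 0.285), and the other 6 lay between -0.03 and 0.14.

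The values behind the Adm slope were uneven over the scores. In Other, the 5 lines with score 1 averaged 11.05 and ran from 10.36 to 12.33, and the 2 lines with score 4 had 12.22 and 12.91. In Type 2 the line with score 1 had 8.59, the line with score 2 had 11.39 and the 3 lines with score 4 ran from 10.60 to 11.42. In Type 3 the line with score 1 had 9.51, the line with score 2 had 11.18, the 5 lines with score 3 ran from 9.77 to 11.80 and the line with score 4 had 11.02. The lowest line of Types 2 and 3 thus had score 1 in each, but the score 1 lines of Other overlapped the higher scores. Without Type 2 line 5 the slope was 0.33, and without group in the model it was -0.05, since the Type 1 lines, with scores 2 and 4, were lowest in Adm.

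**Figure D5:**
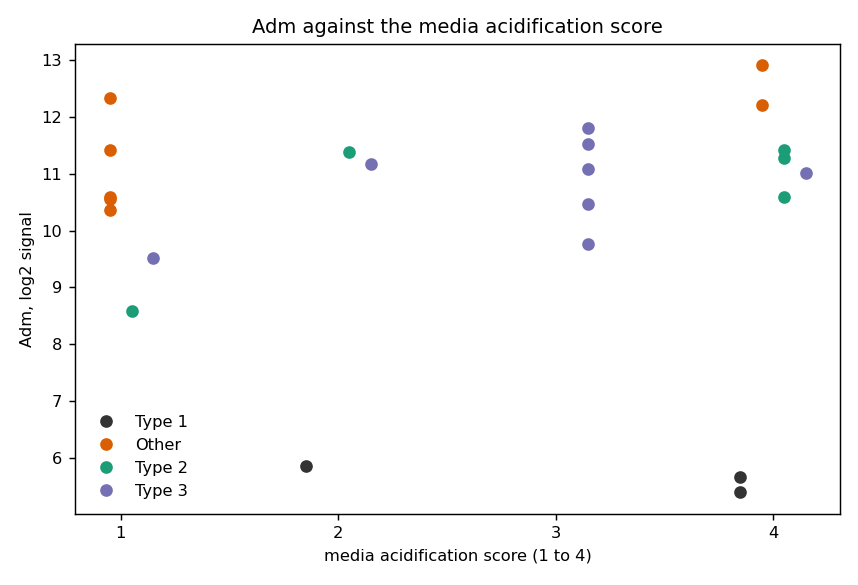
Log2 signal of Adm against the media acidification score from 1 to 4, 1 point per line, coloured by group and shifted sideways by group. Type 1 points lie between 5.39 and 5.86 at scores 2 and 4, and the lowest points of Type 2 (8.59) and Type 3 (9.51) are at score 1.

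Likeness among the 7 genes was described over the 20 lines of Other, Type 2 and Type 3, which share platform and processing, since Type 1 stood apart. Vegfc and Angpt1 went in opposite directions (Pearson r = -0.60, Spearman rho = -0.61). Without the 2 lines farthest from the median of Vegfc r was -0.50, and with group means taken off it was -0.47. For each pair the 2 lines left out were those farthest in the gene named first, not in the other. Angpt1 and Ptn went the same way (r = 0.57, rho = 0.51), with 0.37 without the 2 farthest lines and 0.64 with group means taken off. Vegfc and Ptn had r = -0.49, and -0.54 with group means taken off, but -0.09 without the 2 farthest lines, on which it rested. Adm and Vegfa had r = -0.38, and Vegfa and Vegfc, of the same family, r = -0.34. From the 12307 genes tested, clone and predicted names left out, the 3 with the highest r were picked for each of the 7. Such a search over 20 lines returns high r for unrelated genes too, so no link is read from these names. Those closest to Adm were Sbf2 (r = 0.82), Septin11 (0.82) and Ggnbp2 (0.81), and those closest to Angpt1 were Vkorc1 (0.86), Ephx1 (0.85) and Agbl3 (0.85). Vegfa was closest to Banf1 (0.77), Golt1b (0.76) and Clns1a (0.75), and Vegfc to Gfod1, Mterf4 and Fzd5 (0.76 each). Angptl4 was closest to Vwa8 (0.83), Wdr92 (0.75) and Gas8 (0.75), and Mdk to Chchd10 (0.70), Yod1 (0.66) and Lce1i (0.65). Ptn was closest to Peli2 (0.84), Fkbp9 (0.83) and Zfp652 (0.83). Without the 2 lines farthest in Ptn, r was 0.40 for Peli2 (rank correlation 0.49 over all 20) and 0.15 for Fkbp9 (0.31). Both thus rested on those lines. For Lce1i, r fell to 0.44 without the 2 lines farthest in Mdk, and the other neighbours kept 0.63 to 0.85.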

How the data were processed

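Total RNA of 23 clonal lines (250 ng starting RNA, biotin label) was measured on mouse expression arrays. The deposited values are log2 signal, a scale read from their range (2.03 to 14.46). MAS5 is named in the submitters' processing notes, without a version, and the scaling of the arrays is not stated in the sources used here. The values were used as deposited.

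Symbols came from the platform annotation. Of 45101 probe sets, 34958 had a single symbol, 932 several and 9211 none, and 64 were controls. Of 34945 single-symbol probe sets that were no controls, 34741 matched the RefSeq gene table (GRCm38.p6) by Entrez ID, and 0 symbols changed. Each of 18193 genes took the probe set with the highest mean. A gene was tested where 3 lines or more exceeded the median of the table, which gave 12307 genes, with limma 3.58.1 (lmFit, eBayes) in R 4.3.3, with Benjamini-Hochberg adjustment over all of them and a threshold of 0.05. Group fits used all 23 lines. Depot and score fits had group in the model, and depots within a group used means of group by depot. Exact permutation tests, descriptions and plots used Python 3.11.15, matplotlib 3.10.9, pandas 2.3.3, scipy 1.17.1 and numpy 2.4.6. Precision is limited by the number of arrays, and all lines came from 1 mouse.

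The 7 genes, the lists, the comparisons and the alternatives were chosen with earlier results of these data known. Beyond the 7 genes, the rule named the 3 tested genes most correlated with each, and up to 4 genes per list with the largest difference among those past the threshold. Other genes named from the lists were picked after their values were seen. A line's number reflects only its place in the deposit and pairs no lines. Scripts were tested on simulated data.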

Additional observations from a re-analysis of the deposited data

Results flagged for a closer look

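In 21 combinations of gene and group with 4 to 10 lines, 2 held a lowest line far from the rest. Chance flags about 1 in 20 groups. Adm in Type 2 line 5 was 8.59, while the other 4 Type 2 lines lay between 10.60 and 11.42, and its gap was 0.711 of the group's range, just past the limit of 0.71 for 5 lines. That line is the only PGF line of Type 2 and the only one there with an acidification score of 1. Ptn in Other line 7 was 8.82, while the other 6 Other lines lay between 11.97 and 13.20, a gap of 0.719 of the range against a limit of 0.568 for 7 lines. It is a PGF line, and its Vegfc, at 8.87, was the highest of all 23 lines.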

How the results depend on the processing

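No paired analysis was possible because the replicate numbers only give a line's place in the deposit. With the number in the clone name as a term instead, Type 1 minus the mean of Types 2 and 3 was -5.10 for Adm, -4.20 for Ptn, -3.27 for Angpt1, -1.11 for Vegfc and -1.0 for Vegfa, each still passing. With Type 1 against Types 2 and 3, 30 alternatives gave -5.43 to -4.41 for Adm, -4.96 to -3.47 for Ptn, -3.82 to -2.18 for Angpt1 and -1.19 to -0.90 for Vegfa, and all 30 passed for each. For Vegfc they gave -1.26 to -0.88, and 28 passed. Passing is no support for these differences, since the groups were formed from these values and the genes chosen with them known. Over all comparisons the 7 genes had 2034 values under alternatives, of which 80 had another sign than the value reported. In none of these had the reported value passed. For the comparisons between types, passing under the alternative was not counted. Angpt1 in Type 1 was -2.18 with the mean of its probe sets and -2.42 with 32 added to the linear values. The Angpt1 depot difference within Other lost its call with no filter (adjusted p = 0.0534), with each array centred on its median (0.0576), with array weights (0.0796) and on leaving out any of 15 single lines in turn.

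Array weights, an estimate that had not fully settled in some fits, moved the counts of genes called: 7073 against 4042 for Type 1 minus the mean of Types 2 and 3, 6238 against 3638 for Type 1 minus the PGF lines of Types 2 and 3, 1037 against 47 for Type 2 minus Type 3, 2 against 22 for depot within Other and 1 against 0 for depot within Type 3. Type 2 minus Type 3 gave 9 genes with no filter, 1 with mean probe sets, 133 with depot and 5 with the clone-name number in the model. Depot within Other gave 7 with mean probe sets. The differentiation slope gave 2 genes with depot in the model, against 0. The cause was not tested. Leaving out single lines gave 2708 to 4267 genes, 2723 to 3872, 0 to 195, 0 to 1 for Other against Types 2 and 3, 0 to 79 for depot within Other (79 without Other line 6), 0 to 1 for depot within Type 3, 0 to 2 for the difference between those depot effects, and 0 throughout for depot overall and both slopes, the first 3 ranges in the order of the comparisons above.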

Other observations

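Angiogenesis inhibitors were measured beside the 7 factors. Of 14 tested, 3 were higher and 4 lower in Type 1 against Types 2 and 3, with a median of -0.21, where 32.8% of all genes passed in either direction. Thbs2, a thrombospondin, averaged 8.32 ± 1.36 in Type 1, against 13.13 ± 0.87 in Other, 13.07 ± 0.38 in Type 2 and 13.08 ± 0.38 in Type 3 (-4.75 ± 0.44). Serpinf1, the pigment epithelium-derived factor, averaged 8.62 ± 0.50 in Type 1, against 12.09 ± 0.41 in Other, 12.34 ± 0.19 in Type 2 and 12.25 ± 0.21 in Type 3 (-3.68 ± 0.20). Thbs1 was at -2.31 ± 0.28 and the guidance ligand Sema3a at 2.47 ± 0.60. Timp3 (1.96 ± 0.36) and Vash2 (0.44 ± 0.16) were higher too, and Timp1 (-1.06 ± 0.22) was lower too. In groups formed from the same values, factors that promote and factors that inhibit vessel growth were both among the low genes of Type 1. Both kinds were also among its high genes.

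Of 29 tested hypoxia-inducible genes and regulators, 8 were higher and 4 lower in Type 1, beside 32.8% of all genes, with a median of 0.06 beside 0.01 for all genes. Egln3, an oxygen sensor, averaged 7.47 ± 0.52 in Type 1, against 4.81 ± 0.89 in Other, 5.32 ± 1.14 in Type 2 and 4.30 ± 0.26 in Type 3 (2.66 ± 0.46). Car12 was at 2.27 ± 0.29, Ndrg1 at 1.90 ± 0.63 and Pfkfb3 at 1.45 ± 0.22, whereas Ddit4 was at -1.03 and Hif1a, a master regulator of the response, at 0.02 ± 0.16 and did not pass. Adm and Vegfa, known targets of that response, were lower in the same lines, and the part of that response in their values was not tested. Of 16 tested PPAR-responsive genes, 1 was higher and 5 lower, beside 32.8% of all genes, with a median of -0.17. Fabp4 averaged 3.66 ± 0.69 in Type 1, against 6.71 ± 1.42 in Other, 9.07 ± 1.31 in Type 2 and 7.64 ± 1.18 in Type 3 (-4.70 ± 0.76). Pparg (-3.67 ± 0.43), Pdk4 (-2.58 ± 0.45) and Plin4 (-1.94 ± 0.53) were also lower. Angptl4, itself such a target, was at 0.43 ± 0.37 and did not pass, and the part of PPAR receptors in its value was not tested.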
